A study of Homo sapiens with 2 samples.

Results

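The glutathione transferases, aldehyde dehydrogenases (ALDH) and aldo-keto reductases (AKR) were examined in parental and CARM1 KO A1847 cells. A1847 is a human ovarian cancer cell line, and CARM1 is an arginine methyltransferase that acts on histones and on chromatin remodelling subunits. Members were chosen by name, as every protein-coding gene whose symbol starts with GSTA, GSTM, GSTO, GSTP, GSTT, MGST, ALDH, AKR1 or AKR7. The rule uses names and no measured value. The count table held 51 such genes among 57736, of which 19 were glutathione transferases, 19 were aldehyde dehydrogenases and 13 were AKRs. RNA-Seq was performed on total RNA from 1 library of parental cells, which are CARM1 wild type, and 1 library of CARM1 KO cells. The CARM1 KO cells are a clone made with the pLentiCRISPR v2 vector and a guide RNA against CARM1. Both cell populations were grown in the same serum-containing medium, and no drug treatment is named for either library. With 1 library per group there was no replicate check, and the loss of CARM1, the selection of a clone and differences between cultures cannot be told apart. The intervals given are exact 95% binomial intervals and hold for counting error alone.

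The 3 enzyme groups deal with reactive carbon compounds. Glutathione transferases couple glutathione to electrophiles such as lipid peroxidation products and anticancer drugs, and the membrane-bound MGST enzymes do so in membranes. Aldehyde dehydrogenases oxidise aldehydes to acids, including retinal to retinoic acid, and AKRs reduce aldehydes and ketones, including steroids and prostaglandins. Many of these genes are known targets of the transcription factor NRF2, which binds antioxidant response elements, and ALDH activity is widely used as a marker of stem-like cells in ovarian cancer.

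The parental library held 30741953 reads and the CARM1 KO library 32300391. CARM1 itself was counted in 975 parental reads and 380 CARM1 KO reads, 2.65-fold lower in the knockout (interval 2.35 to 2.99), so its transcript was lower but still present. The paper examined CARM1 protein in the knockout cells by immunoblot, and read counts do not measure protein. Marker lists showed that the libraries differed widely. In CARM1 KO cells, 6 of 9 tested epithelial markers were called higher and KRT19 (45 and 0 reads) lower, and their summed level was 345 in parental and 1061 in CARM1 KO cells. Levels are given as RPKM, reads divided by exon length and scaled library size. Where read counts are ranked between genes, they are not corrected for gene length. All 3 tested ovarian and Müllerian markers were called higher, with a summed list level of 5.08 and 24.4 RPKM, but EMX2 had 0 reads in both libraries, MUC16 0 and 1, SOX17 0 and 2 and WT1 8 and 1. Of 8 tested fibroblast markers, 6 were called lower and 1 higher, and their summed level was 173 RPKM in parental and 2.55 in CARM1 KO cells. COL1A2 went from 16732 to 3 reads. Of 4 tested leukocyte markers, 3 were called higher, with a summed level of 6.34 and 24.3 RPKM, while PTPRC had 6 and 0 reads and CD3E had 0 in both. The summed level of the endothelial list was 0.0540 and 0.0553, and that of the hepatocyte list was 0.153 and 0.486 RPKM. The only tested hepatocyte marker, SERPINA1, was called higher with 10 and 57 reads, and the only tested endothelial marker was not called. CDH5, ALB and TTR had at most 3 reads in either library. The part of these shifts in the results below was not tested.

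A gene was tested when both libraries together held at least 10 reads. It was called higher or lower when the scaled ratio of CARM1 KO to parental reads exceeded 3-fold and its interval left out 1. Of the 51 members, 40 were tested, and 11 were called higher and 5 lower, which is 27.5% and 12.5% of them. Over all 18563 tested genes, 12.3% were called higher and 11.3% lower, so the share of members called lower was near the background. The median log2 fold change of the tested members was 0.21 (with 2 reads added to each count), beside -0.03 over all tested genes and 0.02 over protein-coding genes. It was -0.05 when members with at least 1 read were taken in. With edgeR's exact test at an assumed coefficient of variation of 0.4, the calls left were AKR1C2 and AKR1E2 higher and GSTA4, GSTM1 and GSTT2 lower. In RNA from a whole culture, fewer cells that express a gene and less RNA of it per cell cannot be told apart. All 3 enzyme groups held members called in either direction, with 3 of 14 glutathione transferases higher and 3 lower, 5 of 17 ALDH genes higher and 1 lower, and 3 of 9 AKR genes higher and 1 lower. Their medians were 0.25, 0.21 and 0.20.

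**Figure D1:**
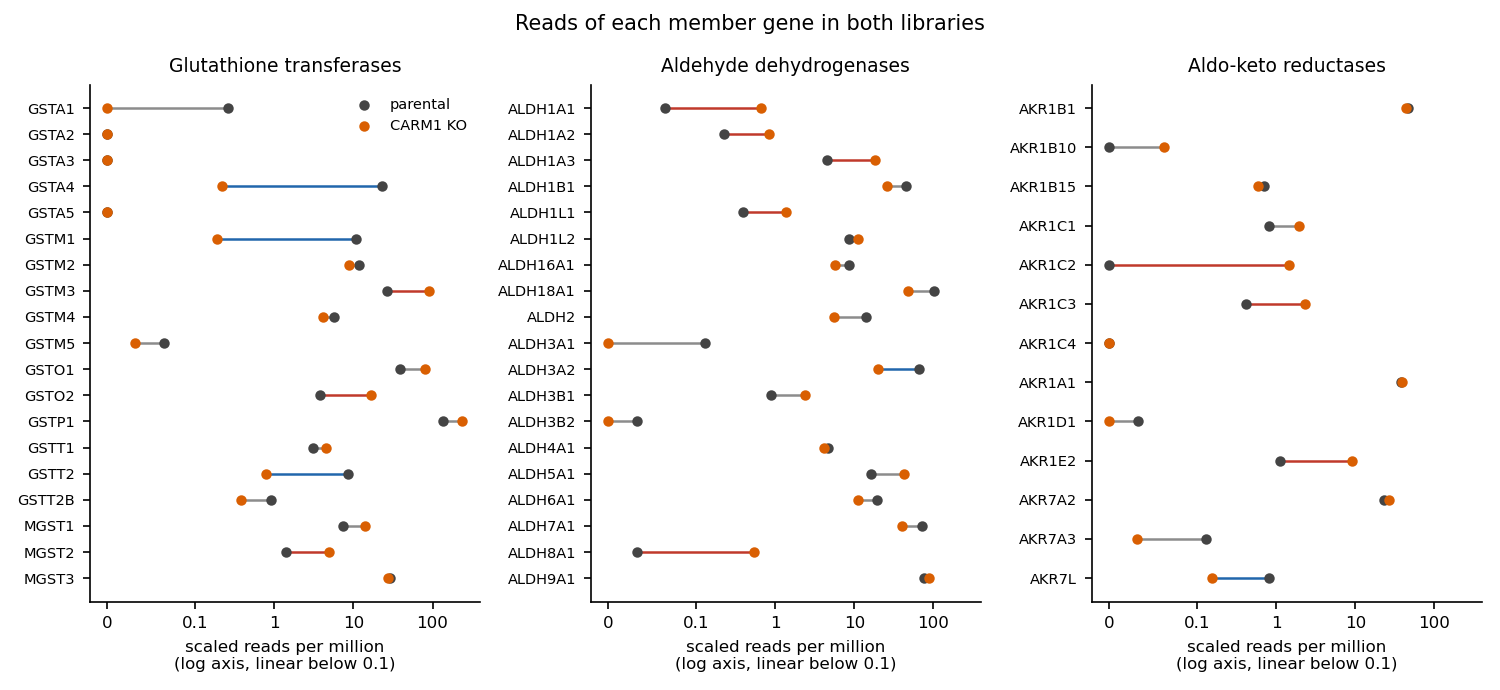
Reads of each of the 51 members in parental (dark) and CARM1 KO (orange) cells, in CPM (counts scaled to library size) on a log axis that is linear below 0.1, with 1 panel per enzyme group. Connecting lines are red for members called higher, blue for those called lower and grey for the others. GSTP1 has the most reads of the glutathione transferases in both libraries, while GSTA4 and GSTM1 run from 706 and 335 parental reads down to 7 and 6.

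GSTA4, GSTM1 and GSTT2 were the glutathione transferases called lower. GSTA4 (ENSG00000170899, chr6:52842746-52860102 on GRCh37, minus strand), an alpha class enzyme that conjugates hydroxynonenal from oxidised lipids, was counted in 706 parental and 7 CARM1 KO reads. It fell 104-fold (interval 50.3 to 260). GSTM1 (ENSG00000134184, chr1:110230436-110251661, plus strand), the mu class gene that many people lack, fell from 335 to 6 reads, 57.7-fold (26.2 to 158), though with its close copies summed the mu genes other than GSTM3 were 2.16-fold lower and not called. GSTT2 (ENSG00000099984, chr22:24322249-24326106, plus strand), a theta class gene, fell from 262 to 25 reads, 10.8-fold (7.17 to 17.0). In parental cells GSTA4 was the third most abundant glutathione transferase per length, at 10.8 RPKM, and in CARM1 KO cells it ranked 13, at 0.104. With the canonical transcript length, the representative transcript of the annotation, it ranked 4 and 12.

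Other glutathione transferases rose. GSTM3 (ENSG00000134202, chr1:110276554-110283660, minus strand) lies in the same mu cluster as GSTM1 and rose from 822 to 2894 reads, 3.41-fold (3.15 to 3.69). GSTO2 (ENSG00000065621), an omega class enzyme that also reduces dehydroascorbate, rose from 117 to 534 reads, 4.42-fold (3.61 to 5.45). MGST2 (ENSG00000085871), a microsomal enzyme that can also make leukotriene C4, rose from 44 to 159 reads, 3.50-fold (2.49 to 5.00). GSTM3 was the only one of these that was abundant, with 5.58 RPKM in parental and 19.0 in CARM1 KO cells.

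The most abundant glutathione transferases stayed under the threshold. GSTP1, the pi class enzyme often high in tumour lines, had 4263 parental and 7661 CARM1 KO reads, a ratio of 1.74 (1.68 to 1.81). GSTO1, the other omega gene, had 1218 and 2592 reads, a ratio of 2.06 (1.92 to 2.21). Of the summed glutathione transferase level, GSTP1 made up 56.2% in parental and 63.0% in CARM1 KO cells, and GSTO1 16.8% and 22.2%. The summed level was 139 RPKM in parental and 215 in CARM1 KO cells, so it was higher in the knockout although GSTA4, GSTM1 and GSTT2 had fallen. GSTM2, GSTM4, GSTT1, GSTT2B, MGST1 and MGST3 were not called, with ratios from 0.415 for GSTT2B (28 and 12 reads) to 1.94 for MGST1 (226 and 454 reads).

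The upstream sequences of 4 of these genes are shown because they moved differently within the same superfamily. Each line gives the 250 bases before the RefSeq start on GRCh38.p14, on the gene's own strand, with any match to the antioxidant response element core TGACNNNGC on either strand in capitals. GSTA4 lies at chr6:52995285-52995534, GSTM1 at chr1:109687567-109687816, GSTM3 at chr1:109741039-109741288 and GSTP1 at chr11:67583562-67583811.
GSTA4: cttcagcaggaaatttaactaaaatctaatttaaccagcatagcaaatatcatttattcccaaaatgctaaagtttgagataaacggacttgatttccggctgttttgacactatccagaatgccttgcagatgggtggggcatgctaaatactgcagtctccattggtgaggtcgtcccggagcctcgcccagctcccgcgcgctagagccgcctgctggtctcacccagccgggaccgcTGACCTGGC
GSTM1: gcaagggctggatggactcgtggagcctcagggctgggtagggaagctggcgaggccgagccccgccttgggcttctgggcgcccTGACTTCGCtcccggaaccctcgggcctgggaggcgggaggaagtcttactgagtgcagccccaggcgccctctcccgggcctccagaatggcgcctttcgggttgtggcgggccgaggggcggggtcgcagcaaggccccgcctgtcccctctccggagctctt
GSTM3: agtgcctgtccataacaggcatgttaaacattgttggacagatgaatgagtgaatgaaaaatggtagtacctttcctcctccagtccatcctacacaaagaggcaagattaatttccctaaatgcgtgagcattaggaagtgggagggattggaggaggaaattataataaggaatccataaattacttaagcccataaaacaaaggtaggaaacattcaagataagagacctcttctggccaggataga
GSTP1: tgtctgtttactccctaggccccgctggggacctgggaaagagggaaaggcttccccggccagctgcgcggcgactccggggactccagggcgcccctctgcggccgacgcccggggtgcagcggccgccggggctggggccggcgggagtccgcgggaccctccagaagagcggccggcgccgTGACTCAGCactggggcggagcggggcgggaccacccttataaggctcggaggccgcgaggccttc
GSTA4, GSTM1 and GSTP1 each held 1 match, TGACCTGGC, TGACTTCGC and TGACTCAGC, and GSTM3 held none. The match began 9 bases before the start of GSTA4, 165 before that of GSTM1 and 66 before that of GSTP1. The GSTM3 window held 1 CpG dinucleotide in its 300 bases, against 22 for GSTM1, 14 for GSTA4 and 36 for GSTP1.

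The same search was run over all members. RefSeq promoter windows, from 250 bases before to 50 after a start, matched 39 of the 51 members with 51 windows. Of these, 8 held the core on either strand, which is 15.7%, beside 13.4% of all 35116 windows and 14.2% of those of tested protein-coding genes. It was in 0 of 15 windows of members called higher, in 2 of 4 windows of members called lower (GSTA4 and GSTM1) and in 5 of 24 windows of tested members not called. These windows came from 10, 3 and 18 genes, as some genes, AKR7A2 among them, have several overlapping windows. MGST2, called higher, and GSTT2 and AKR7L, called lower, had no window. The remaining window belonged to GSTM5, which had too few reads. The windows of members called higher held a median of 10 CpG, those of members called lower 18 and those of the tested members not called 20. All windows held a median of 14, and those of tested protein-coding genes 24. These are descriptions of letters in fixed windows and say nothing of whether a factor binds there.

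**Figure D2:**
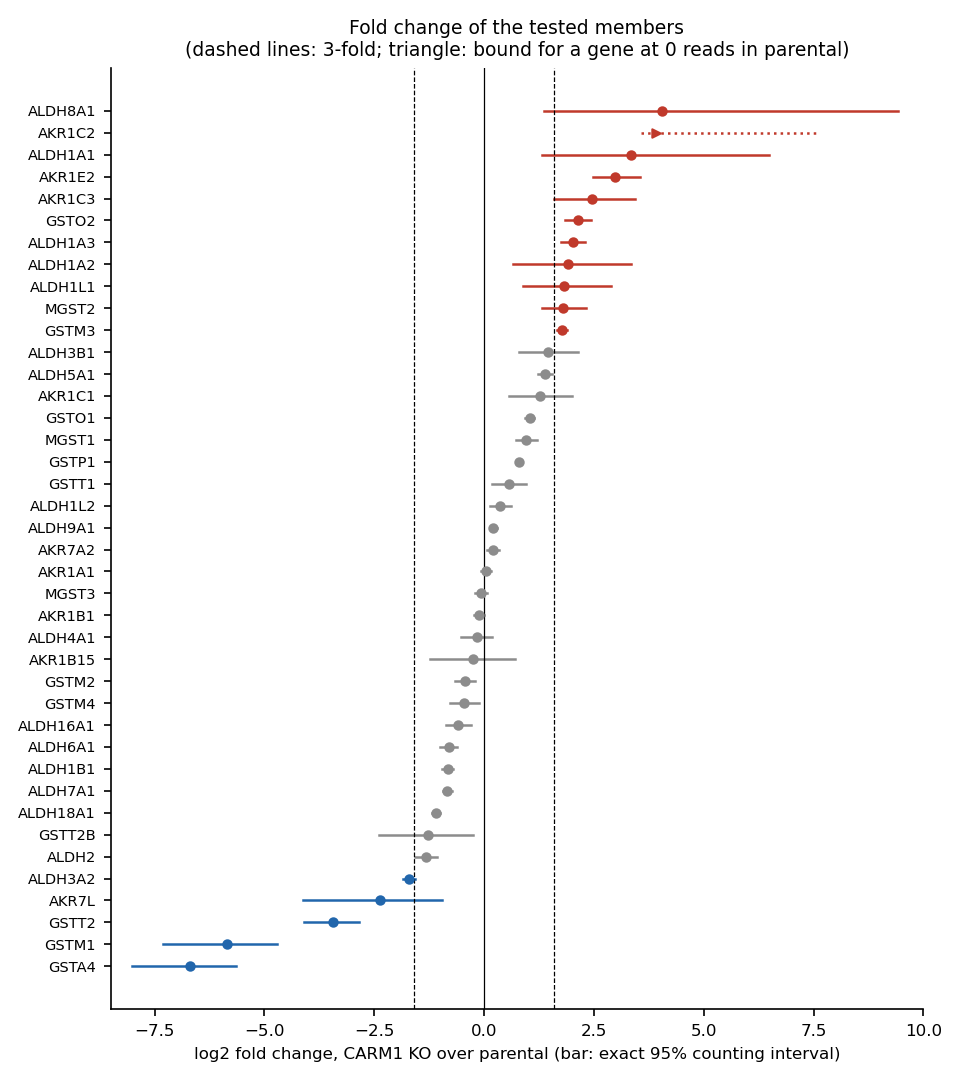
Fold change of the 40 tested members on a log2 scale, CARM1 KO over parental, with exact 95% counting intervals. Dashed lines mark 3-fold, red and blue points are members called higher and lower, and the triangle is AKR1C2, which had 0 parental reads and is drawn at its bound, with a dotted line that starts at the lower end of its interval, 11.9-fold. GSTA4 and GSTM1 stand at the far left and the intervals of ALDH8A1 and ALDH1A1, with 1 and 2 parental reads, are the widest.

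Among aldehyde dehydrogenases, 4 of the 6 ALDH1 genes were called higher and none lower, beside 12.3% of all tested genes called higher. Their summed level was 16.4 RPKM in parental and 13.3 in CARM1 KO cells, most of it ALDH1B1, described below with the abundant genes. ALDH1A1, ALDH1A2 and ALDH1A3 oxidise retinal to retinoic acid. ALDH1A3 (ENSG00000184254, chr15:101417919-101456831, plus strand) had the most reads of the 3 and rose from 139 to 585 reads, 4.08-fold (3.38 to 4.94). ALDH1A1 (ENSG00000165092), the form most often measured in stem-like cancer cells, was counted in 2 parental and 21 CARM1 KO reads, 10.2-fold higher (2.49 to 89.5). ALDH1A2 (ENSG00000128918) rose from 7 to 27 reads, 3.74-fold (1.59 to 10.2). ALDH1A1 and ALDH1A2 stayed low per length, at 0.231 and 0.104 RPKM in CARM1 KO cells, beside 3.42 for ALDH1A3. ALDH1L1 (ENSG00000144908), which oxidises formyltetrahydrofolate in the cytosol, rose from 12 to 44 reads, 3.55-fold (1.84 to 7.39).

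Outside the ALDH1 genes, ALDH8A1 rose and ALDH3A2 fell. ALDH8A1 (ENSG00000118514), an enzyme of tryptophan breakdown, was counted in 1 parental and 17 CARM1 KO reads, 16.5-fold higher (2.58 to 688). ALDH3A2 (ENSG00000072210, chr17:19551449-19589073, plus strand), the fatty aldehyde dehydrogenase that is defective in Sjögren-Larsson syndrome, fell from 2009 to 636 reads, 3.26-fold (2.98 to 3.57). ALDH3A2 was the member with the most parental reads among those called.

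The ALDH genes at 10 RPKM or more in either library stayed under the threshold, and their order differed between the libraries. ALDH18A1, which makes the precursor of proline and ornithine, had 3112 and 1512 reads and was 2.13-fold lower in CARM1 KO cells (1.998 to 2.26). ALDH9A1, an enzyme of carnitine synthesis, had 2379 and 2840 reads, a ratio of 1.16 (1.09 to 1.22). ALDH1B1, a mitochondrial enzyme, had 1412 and 824 reads and was 1.77-fold lower (1.62 to 1.93). Per length, ALDH18A1 came first in parental cells with 30.8% of the summed ALDH level and ALDH9A1 first in CARM1 KO cells with 42.3%. This order depended on the gene length used, since with the canonical transcript length ALDH9A1 came first in both, at 25.6% and 38.4%, and ALDH3A2, which was called lower, reached 17.5 RPKM in parental cells, above ALDH1B1 at 15.0. The summed ALDH level was 86.7 RPKM in parental and 69.7 in CARM1 KO cells.

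Several ALDH genes lay close to the threshold. ALDH3A2 at 3.26-fold was the nearest member inside it. Just outside were ALDH3B1 with 27 and 76 reads (2.73-fold higher), ALDH5A1, the succinic semialdehyde dehydrogenase, with 508 and 1373 reads (2.62-fold higher), and ALDH2, which oxidises acetaldehyde in mitochondria, with 429 and 178 reads (2.49-fold lower). The remaining ALDH genes tested, namely ALDH1L2, ALDH4A1, ALDH6A1, ALDH7A1 and ALDH16A1, had ratios from 0.560 for ALDH7A1 (2245 and 1298 reads) to 1.29 for ALDH1L2 (264 and 353 reads).

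**Figure D3:**
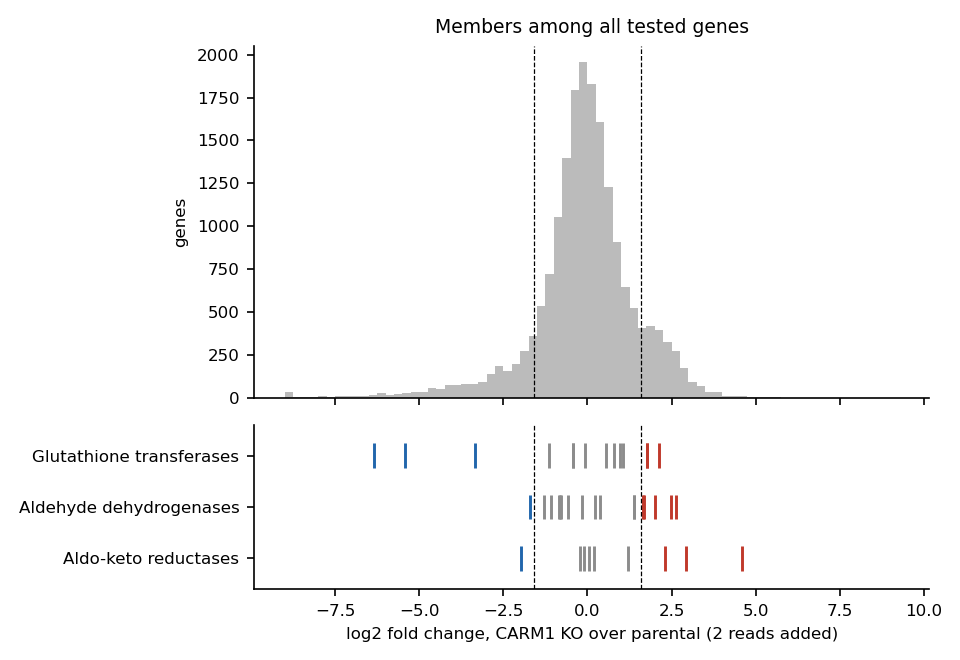
Distribution of the log2 fold change, CARM1 KO over parental with 2 reads added, over all 18563 tested genes (upper panel, with values beyond the axis placed in the end bins) and of the tested members by enzyme group (lower panel). Dashed lines mark 3-fold, and red and blue ticks are members called higher and lower. Members lie on both sides, with GSTA4 at -6.34 and AKR1C2 at 4.59 as the extremes.

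Among the AKRs, members of the cluster on chromosome 10 rose. AKR1C3 (ENSG00000196139, chr10:5077546-5149878, plus strand), which reduces steroid ketones and prostaglandins, rose from 13 to 74 reads, 5.51-fold (3.03 to 10.8). AKR1C2 (ENSG00000151632, chr10:5029967-5060223, minus strand), which inactivates dihydrotestosterone, had 0 parental and 47 CARM1 KO reads. It was at least 11.9-fold higher by the lower end of its exact interval, and 15.2-fold higher against a floor of 3 reads. AKR1E2 (ENSG00000165568, chr10:4828821-4890254, plus strand), which reduces anhydrofructose and lies beside the AKR1C genes, rose from 35 to 287 reads, 7.94-fold (5.58 to 11.6). AKR1C1 lay just outside the threshold, with 25 and 62 reads and a ratio of 2.40 (1.49 to 3.99), and AKR1C4 had 0 reads in both libraries. All of these were low per length, with AKR1E2 the highest at 3.71 RPKM in CARM1 KO cells.

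AKR7L (ENSG00000211454), a relative of the aflatoxin aldehyde reductases, fell from 25 to 5 reads, 5.16-fold (1.94 to 17.3). The 3 abundant AKR genes differed little. AKR1B1, aldose reductase of the polyol pathway, had 1456 and 1386 reads and a ratio of 0.922 (0.856 to 0.993). AKR1A1, which reduces a broad range of aldehydes, had 1167 and 1250 reads and a ratio of 1.04 (0.957 to 1.12). AKR7A2, which reduces succinic semialdehyde, had 721 and 857 reads and a ratio of 1.15 (1.04 to 1.27). AKR7A2, AKR1B1 and AKR1A1 made up 33.3%, 32.7% and 30.7% of the summed AKR level in parental cells, an order that also turned with the canonical transcript length, where AKR1B1 came first at 42.8%. AKR1B15 had 22 and 19 reads. The summed AKR level was 39.3 RPKM in parental and 44.4 in CARM1 KO cells.

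The 11 members below the read minimum had next to no reads. GSTA2, GSTA3, GSTA5 and AKR1C4 were at 0 in both libraries. GSTA1 had 8 and 0 reads, GSTM5 2 and 1, ALDH3A1 4 and 0, ALDH3B2 1 and 0, AKR1B10 0 and 2, AKR1D1 1 and 0, and AKR7A3 4 and 1. AKR1B10, a strong NRF2 responder in many carcinoma lines, was thus near 0 in both libraries. AKR1C8, a gene of the annotation with a matching name, was not analysed here.

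Several of these genes have close copies, and RSEM divides reads that fit more than 1 gene. For each member with a canonical transcript, the 75-base stretches of that transcript that also occur in a transcript of another gene were counted, 75 bases being the read length. Of 50 members, 26 had none, among them GSTA4, GSTM3, GSTO2, MGST2, GSTP1, ALDH1A1, ALDH1A2, ALDH1A3, ALDH1L1, ALDH3A2, ALDH8A1 and AKR1E2. A share over 10% was found in 12 members. It was 76.7% for GSTT2 and 82.3% for GSTT2B, each with the other, 45.2% for GSTM1 and 40.8% for GSTM2, 36.0% for AKR1C2, 16.8% for AKR1C1, 12.3% for AKR1C3 and 20.7% for AKR7L. GSTM1 and GSTM2 also have overlapping exons on the same strand, described below. How much of their shared stretches lies in that overlap was not tested. The counts of GSTM1, GSTT2, AKR1C2, AKR1C3 and AKR7L are therefore less certain than their intervals.

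A stretch as long as 1 read shows how far the copies differ. Coding bases 301 to 375, counted from the first base of the start codon in the GENCODE transcript on GRCh37, are printed with bases that differ from GSTM1, or from AKR1C1, in capitals.
GSTM1: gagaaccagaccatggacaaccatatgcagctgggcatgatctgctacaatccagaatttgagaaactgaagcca
GSTM2: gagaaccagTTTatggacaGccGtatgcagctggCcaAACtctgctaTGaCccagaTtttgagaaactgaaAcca
GSTM4: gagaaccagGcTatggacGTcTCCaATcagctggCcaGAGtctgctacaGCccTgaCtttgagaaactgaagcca
AKR1C1: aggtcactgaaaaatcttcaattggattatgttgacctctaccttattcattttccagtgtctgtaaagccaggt
AKR1C2: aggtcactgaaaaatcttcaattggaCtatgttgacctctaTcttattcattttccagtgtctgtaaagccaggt
AKR1C3: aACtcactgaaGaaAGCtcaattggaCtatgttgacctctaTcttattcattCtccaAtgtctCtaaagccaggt
Here GSTM2 differed from GSTM1 at 14 bases and GSTM4 at 17, whereas AKR1C2 differed from AKR1C1 at only 2 and AKR1C3 at 11. Over the whole coding sequence GSTM1 was 89.95% identical to GSTM2 and 92.09% to GSTM4, and AKR1C1 was 98.05% identical to AKR1C2, with 19 differences in 972 bases. GSTA4 was far from its cluster, at 62.03% identity to GSTA1.

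Reads were therefore also summed over each cluster before the ratio was taken. The AKR1C genes together had 38 and 183 reads and were called higher, 4.66-fold (3.27 to 6.80). AKR1C1 and AKR1C2 alone had 25 and 109 reads, 4.22-fold higher (2.71 to 6.81), a smaller ratio than that of AKR1C2 counted alone. GSTT2 and GSTT2B together fell from 290 to 37 reads, 8.09-fold (5.74 to 11.7). The mu genes GSTM1, GSTM2, GSTM4 and GSTM5 together had 876 and 418 reads and were 2.16-fold lower (1.92 to 2.44), which is under the threshold. With GSTM3 added, which shares no stretch with another gene, the mu cluster had 1698 and 3312 reads, a ratio of 1.89. The AKR7 genes together had 750 and 863 reads, a ratio of 1.11. Most of these are reads of AKR7A2 (721 and 857), which holds only 4.44% of the AKR7L stretches, against 18.6% for AKR7A3 (4 and 1 reads). This sum therefore follows AKR7A2 and cannot test the fall of AKR7L.

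Other genes overlap the exons of 8 called members, and for 3 of these the overlapping gene had reads. Whether strand was used in counting is not stated. ALDH1A3-AS1, a non-coding gene on the opposite strand, covers 32.1% of the exon bases of ALDH1A3 and had 8 parental and 56 CARM1 KO reads. MAML3, on the opposite strand to MGST2, covers 7.94% of its exon bases and had 389 and 10 reads. GSTM2 shares 559 exon bases with GSTM1 on the same strand, and had 365 and 279 reads. A further gene without a symbol, on the opposite strand, overlaps part of the GSTM1 exons and had 9 and 1 reads.

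**Figure D4:**
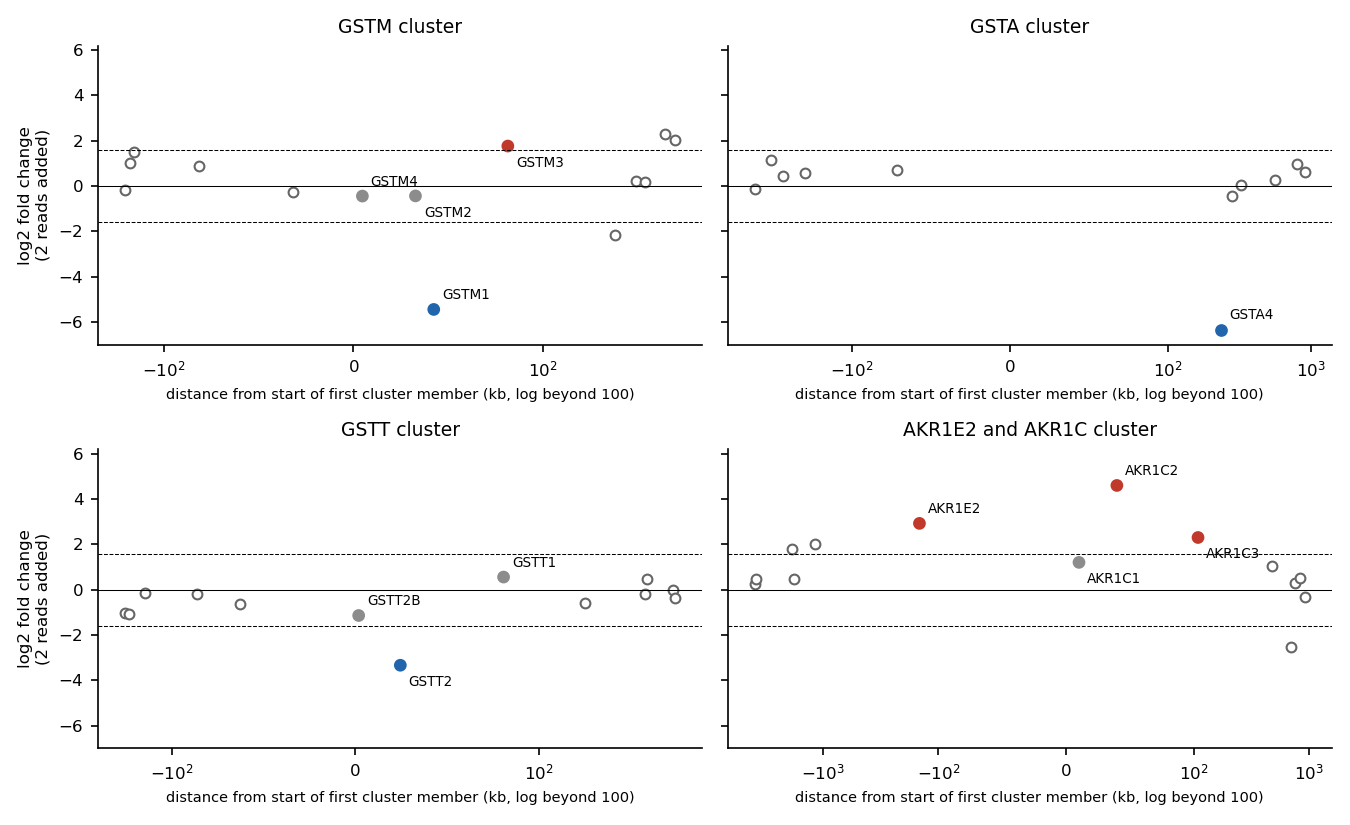
Log2 fold change (2 reads added) of the tested members and of their nearest protein-coding neighbours with at least 50 reads, 5 on each side, against distance from the start of the cluster in kb, on an axis that is logarithmic beyond 100 kb. Filled points are members, coloured by call, open circles are neighbours and dashed lines mark 3-fold. GSTA4 and GSTT2 lie below neighbours that all stay within 3-fold, and GSTM1 and GSTM3 lie on opposite sides of 0 within 1 cluster.

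The nearest protein-coding genes with at least 50 reads on either side of the members were read in the same way. From the first to the last neighbour, the stretch ran from 799.6 kb at the GSTM cluster to 6448 kb at GSTO1 and GSTO2. Some neighbours are therefore far from the member. Over all tested genes, 12.3% were called higher and 11.3% lower. Whether the calls among 10 neighbours of a locus depart from these shares was not tested. Around the GSTA cluster the 10 nearest neighbours had a median log2 fold change of 0.51, a range from -0.42 to 1.14 and no call. The neighbours of the GSTT cluster had a median of -0.28 and no call. Around the GSTM cluster the median was 0.54, with 2 neighbours called higher and 1 lower. The genes beside AKR1C and AKR1E2 had a median of 0.46, with 2 called higher and 1 lower, and those beside GSTO1 and GSTO2 a median of 0.54, with 3 higher and 1 lower. At the called loci not named in this paragraph, the medians ran from -0.31 at ALDH8A1 to 0.43 at ALDH1L1. Neighbours of ALDH1A3 had a median of -0.42, with 1 higher and 1 lower. Those of ALDH3A2 had a median of -0.0033, with 1 called higher and 2 lower, and these 2 were the nearest of them on either side, SLC47A1 with 289 and 44 reads and ULK2 with 568 and 56.

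Other genes of the same pathways were read from lists of 139 different genes. Over all tested genes, 12.3% were called higher and 11.3% lower, and the median log2 fold change was -0.03. The regulators of NRF2 gave no call among 9 tested genes, with a median log2 fold change of 0.34. NFE2L2, which encodes NRF2, had 1204 and 1578 reads (ratio 1.27), and KEAP1, which marks NRF2 for degradation, had 1229 and 1729 (ratio 1.36). Of 25 tested NRF2 targets, 3 rose and 2 fell, with a median of 0.47. SLC7A11, the cystine importer that feeds glutathione synthesis, rose from 305 to 1906 reads, 6.05-fold (5.36 to 6.85). FTL and FTH1, the ferritin chains that store iron, rose from 5206 to 18000 and from 4174 to 13825 reads, 3.35-fold and 3.21-fold. CBR3, a carbonyl reductase, fell from 1336 to 110 reads, 12.5-fold (10.3 to 15.4), and PIR fell from 787 to 164 reads, 4.96-fold. The targets used most often to read NRF2 activity were not called, with NQO1 at 8501 and 6812 reads (ratio 0.776), HMOX1 at 106 and 149 (1.36), GCLC at 873 and 1781 (1.98) and GCLM at 1530 and 2382 (1.51).

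The glutathione cycle gave 2 calls among 18 tested genes, both of them peroxidases and both higher, with a median of 0.45. The share called higher was 11.1%, near the 12.3% of all tested genes. GPX1 rose from 637 to 3063 reads, 4.66-fold (4.27 to 5.08), and GPX7 from 9 to 110 reads, 11.8-fold (6.01 to 26.6). Of 10 tested relatives of the glutathione transferases outside the rule, CLIC3, a chloride channel protein with the same fold, was the only call, at 6 and 61 reads. Their median was 0.58, and the share called higher was 10.0%. In the lists of partners of ALDH18A1 and the ALDH1L enzymes, in proline and folate metabolism, 2 of 13 genes rose (15.4%). PYCR1, the reductase that completes proline synthesis after ALDH18A1, rose from 216 to 1442 reads, 6.47-fold (5.60 to 7.49), while ALDH18A1 itself was 2.13-fold lower. PRODH, which degrades proline, rose from 5 to 33 reads.

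**Figure D5:**
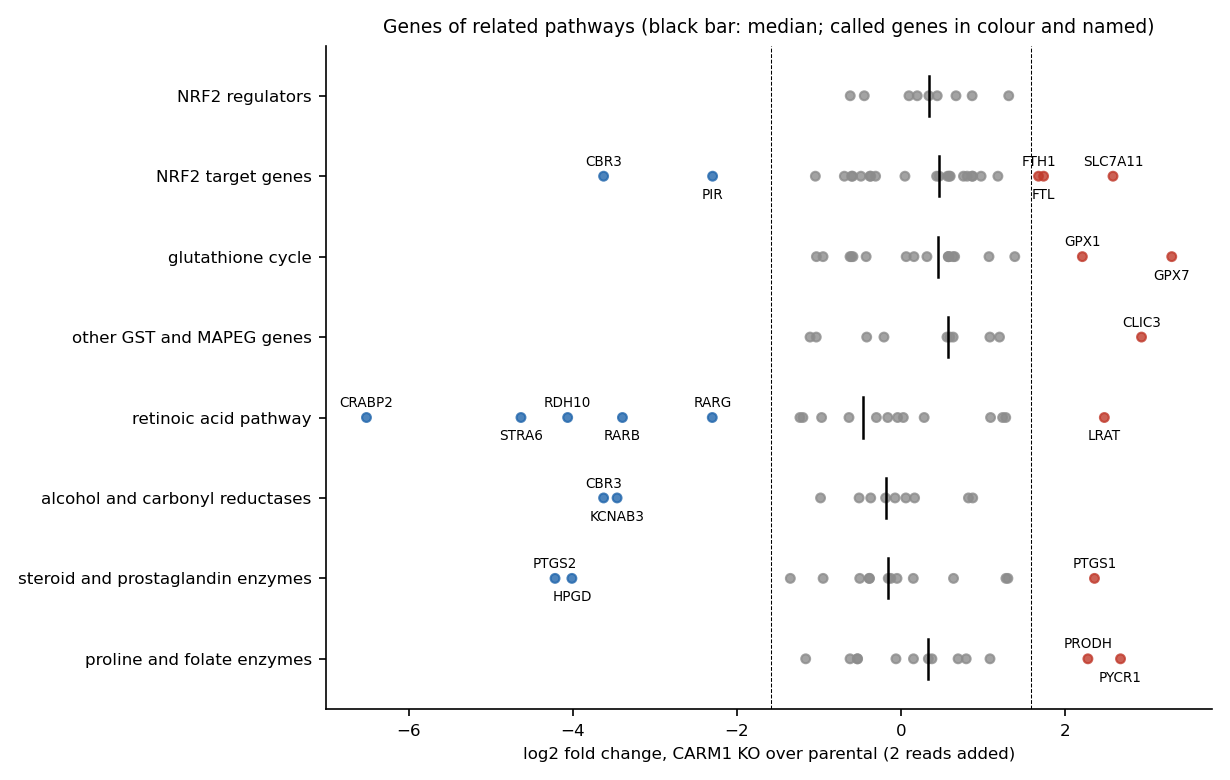
Log2 fold change (2 reads added), CARM1 KO over parental, of the tested genes of 8 related pathway lists, with the median of each list as a black bar, dashed lines at 3-fold and the called genes in colour and named. The retinoic acid list has the lowest median, at -0.46, with 5 of 18 genes called lower, beside 11.3% of all tested genes. The NRF2 regulators have no called gene.

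The retinoic acid pathway, which ALDH1A1, ALDH1A2 and ALDH1A3 feed, had 5 of 18 tested genes called lower and 1 higher, with a median of -0.46. These are 27.8% and 5.56%, beside 11.3% and 12.3% of all tested genes. CRABP2, which carries retinoic acid to the nucleus, fell from 11354 to 126 reads, 93.1-fold (78.1 to 112). STRA6, a retinol importer, fell from 287 to 10 reads, 29.6-fold (15.9 to 62.5). RDH10, which makes the retinal that the ALDH1A enzymes use, fell from 27980 to 1727 reads, 16.7-fold (15.9 to 17.6). The receptors RARB and RARG fell from 803 to 77 and from 956 to 199 reads, 10.8-fold and 4.96-fold. LRAT, which stores retinol as esters, rose from 15 to 96 reads. The enzymes that degrade retinoic acid were low, with CYP26A1 at 29 and 24 reads and CYP26B1 at 14 and 37, and neither was called.

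Among other reductases 18.2% of tested genes were called, and among enzymes of steroids and prostaglandins 20.0%, beside 23.55% of all tested genes. The shares called lower were 18.2% and 13.3%, beside 11.3% of all tested genes. Of 11 tested alcohol and carbonyl reductases, CBR3 and KCNAB3 (41 and 2 reads) were called lower and none higher, with a median of -0.18. Of 15 tested steroid and prostaglandin enzymes, which share substrates with the AKR1C proteins, PTGS1 rose from 5 to 35 reads and 2 fell, with a median of -0.15. PTGS2, the inducible cyclooxygenase, fell from 989 to 53 reads, 19.3-fold (14.6 to 25.9), and HPGD, which inactivates prostaglandins, fell from 61 to 2 reads, 31.5-fold (8.35 to 266). FTH1, RARG, LRAT, KCNAB3, PTGS1, HPGD, PRODH, CLIC3, ALDH1A3-AS1, MAML3, SLC47A1 and ULK2 were named after their values were seen.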

How the data were processed

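Total RNA from 1 parental and 1 CARM1 KO library of A1847 cells was sequenced as 75 bp paired-end reads with the ScriptSeq Complete Gold kit on an Illumina NextSeq. The authors used bowtie2 to place the reads on hg19 and RSEM to count them per Ensembl gene (version 1.2.3 in the submitters' processing notes), and deposited counts that are whole numbers with no scaling. RSEM divides reads shared between copies, and the annotation release and strand setting are not given in the sources used here. Symbols, gene types and lengths were taken from GENCODE v44 on GRCh37, where 55501 of 57736 identifiers were found. Depth was 30741953 and 32300391 reads, and the median half-width of the members' intervals was 0.28 on the log2 scale.

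Counts were scaled by TMM in edgeR 4.0.16 under R 4.3.3 over genes whose reads summed to 10 or more. A gene was called when its ratio exceeded 3-fold and the exact 95% Clopper-Pearson interval, computed with scipy 1.17.1, left out 1. No p-value is given, since a group of 1 library leaves edgeR's quasi-likelihood fit no residual spread. A count of 0 was set to 3 reads and the fold given as a bound. Medians had 2 reads added to each count. Levels (RPKM) are reads per kb of merged exons, scaled to library size. Merged exons include long rare isoforms, which lowers levels unevenly, so the canonical transcript length was added as an alternative after the data were seen. The steps were tested on simulated data.

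Members and lists were chosen with earlier results of these data known. Both read counts are given for each called member and each with a level of at least 10 in either library, and for each pathway list at most the 4 largest changes with at least 100 reads, beside NFE2L2, KEAP1, NQO1, HMOX1, GCLC, GCLM, CYP26A1, CYP26B1 and RARB. Pathway lists were NRF2 regulators, NRF2 targets, glutathione cycle, other GST and MAPEG genes, retinoic acid pathway, alcohol and carbonyl reductases, steroid and prostaglandin enzymes, and proline and folate partners. The values of 1 gene of these lists are not reported here. Marker lists were epithelial, ovarian and Müllerian, fibroblast, leukocyte, endothelial and hepatocyte. Alternatives were library size, upper-quartile and DESeq2 1.42.0 scaling, TMM over protein-coding genes, other read minimums and fold rules, edgeR's exact test at assumed coefficients of variation, summed clusters, more neighbours and a longer motif. Identity between copies was computed on coding sequences in place of proteins.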

Additional observations from a re-analysis of the deposited data

Results flagged for a closer look

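ALDH1A3-AS1 was looked at because its name starts like that of the members while it is not protein-coding, so no comparison above used it as a member. It was counted in 8 parental and 56 CARM1 KO reads, a ratio of 6.78 (3.21 to 16.5), with ALDH1A3 at 139 and 585 reads on the opposite strand. It was 1 of 40 non-coding genes and pseudogenes with such names. Of the others, 35 had 0 reads in both libraries and 4 had 1 to 3 reads. Whether its reads come from its own strand was not tested, since the strand setting of the counts is not stated.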

How the results depend on the processing

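No paired analysis was possible because each group holds 1 library, so none could be left out either. Library size, upper-quartile, DESeq2 and protein-coding TMM scaling, a minimum of 1 read and edgeR's exact test at a coefficient of variation of 0.12 gave the same 11 higher and 5 lower members. With at least 50 reads, 7 of 33 members were higher and 4 lower, beside 1622 and 1248 of all 14527 genes. With the whole interval beyond 3-fold, 6 of 40 members were higher and 3 lower, beside 1264 and 1245 of all 18563 genes. At 2-fold, 15 of 40 members were higher and 8 lower, beside 3344 and 3225 of all 18563 genes. Of the 139 pathway genes, some of which had too few reads to be tested, 22 were higher and 17 lower at 2-fold. At a coefficient of variation of 0.4, AKR1C2 and AKR1E2 (2) stayed higher and GSTA4, GSTM1 and GSTT2 (3) lower, with 532 of all genes higher and 894 lower and 4 pathway genes higher. Summing the GSTM reads gave a log2 fold change of 0.92, and summing the AKR7 reads gave 0.16, while GSTM1 and AKR7L fell. These sums follow GSTM3 and AKR7A2, which hold most of the reads, and cannot test the falls of GSTM1 and AKR7L. With 10 neighbours a side the GSTM median was 0.22. A motif 1 base longer was in 5.88% of member windows, beside 3.18% of all windows. It was in 0 of 15 windows of members called higher, in 0 of 4 of those called lower and in 3 of 24 of those tested and not called. For single named members, 220 of 244 comparisons kept direction and side of the threshold, 20 lost the call, 2 gained it and 2 turned. The 2 that turned are the GSTM and AKR7 sums. Comparisons in which a member was not tested are left out of the 244, and members that were not called could not lose a call. Depth limits ALDH8A1, ALDH1A1, ALDH1A2, AKR7L and AKR1C2, with at most 47 reads in both libraries together, and none of them was tested at the minimum of 50 reads. GSTA4 and GSTM1 also had at most 7 reads in their lower library, with 706 and 335 in the other.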
